A study of Mus musculus with 15 samples.

Results

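Trp53 and 4 genes whose products restrain or regulate the p53 protein (Mdm2, Mdm4, Ppm1d and Usp7) were followed in E14 mouse embryonic stem cells after knockdown of 4 DEAD-box RNA helicases. The 5 genes were taken by their gene symbols from the 23845 genes of the deposited expression files. All 5 passed the filter on low counts, which left 14335 genes for testing. The study, which by its title concerns R-loop-binding proteins and ribosomal RNA processing, sequenced poly(A) RNA from 15 libraries, with 3 biological replicates in each of 5 groups. The groups were Ddx10KD, Ddx24KD, Ddx27KD and Ddx54KD, each transfected with small interfering RNA (siRNA) against the named helicase, and EGFPKD, the control that received siRNA against EGFP. Cells of every group were of the E14 line and grown on 0.2% gelatin. They received 400 ng of siRNA with 4 µL of Lipofectamine, had their medium changed after 16 h and were collected at 48 h. The number of different siRNAs used for each helicase is not given in the sources used here, so an effect of a helicase and an off-target effect of its siRNA cannot be told apart within 1 group.

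p53 is a transcription factor that halts the cell cycle or starts cell death after DNA damage, nucleolar stress and other insults. Its level is set mainly by protein turnover: Mdm2 binds p53, blocks its activation domain and, with its relative Mdm4, marks it with ubiquitin for degradation. Mdm2 and Ppm1d are themselves transcribed under p53, which closes negative feedback loops. When ribosome assembly is disturbed, free ribosomal proteins such as those of Rpl5 and Rpl11 bind Mdm2 and release p53 from it. RNA levels do not show p53 protein, and no protein was measured here.

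In GRCm38.p6 (mm10) the genes lie at chr11:69580348-69591873 on the plus strand (Trp53), chr10:117688875-117710758 on the minus strand (Mdm2), chr1:132986105-133030587 on the minus strand (Mdm4), chr11:85311254-85347071 on the plus strand (Ppm1d) and chr16:8688722-8757067 on the minus strand (Usp7). The files give 2 transcripts for Trp53, 2 for Mdm2, 6 for Mdm4 and 1 each for Ppm1d and Usp7. RefSeq also holds pseudogene copies of 2 of the genes, Trp53-ps and Mdm4-ps, and 2 predicted genes, Gm29257 and Gm41953, that overlap Mdm4. How the counting assigned reads shared with these, and whether it used strand, is not given in the sources used here, so the levels of Trp53 and Mdm4 carry that uncertainty.

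The RefSeq promoter windows (GRCm38.p6, 250 bases before to 50 bases after a transcript start, on the strand of the gene) of Mdm2 and Ppm1d are shown because these 2 genes moved together across libraries, and that of Trp53 because it also holds a p53 half-site. All 5 genes matched the promoter table. Capitals mark the p53 half-site (a repeat unit of the p53 response element, searched by its consensus on both strands), the CACGTG E-box and the TGACGTCA cyclic AMP response element (CRE). Mdm2 chr10:117710709-117711008 on the minus strand, Ppm1d chr11:85311004-85311303 on the plus strand and Trp53 chr11:69580109-69580408 on the plus strand read 5′ to 3′ as follows.
Mdm2: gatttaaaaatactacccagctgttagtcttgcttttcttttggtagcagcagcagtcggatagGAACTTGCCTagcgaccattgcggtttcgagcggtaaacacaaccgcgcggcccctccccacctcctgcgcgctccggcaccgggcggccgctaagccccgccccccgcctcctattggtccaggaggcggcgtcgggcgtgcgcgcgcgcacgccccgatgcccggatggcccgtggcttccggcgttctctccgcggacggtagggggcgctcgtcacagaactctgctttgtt
Ppm1d: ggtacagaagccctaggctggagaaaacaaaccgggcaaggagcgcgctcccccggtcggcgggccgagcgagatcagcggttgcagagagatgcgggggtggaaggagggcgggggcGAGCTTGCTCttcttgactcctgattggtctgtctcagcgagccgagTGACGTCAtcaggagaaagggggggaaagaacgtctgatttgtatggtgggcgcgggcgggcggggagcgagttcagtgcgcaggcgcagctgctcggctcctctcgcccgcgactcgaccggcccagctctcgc
Trp53: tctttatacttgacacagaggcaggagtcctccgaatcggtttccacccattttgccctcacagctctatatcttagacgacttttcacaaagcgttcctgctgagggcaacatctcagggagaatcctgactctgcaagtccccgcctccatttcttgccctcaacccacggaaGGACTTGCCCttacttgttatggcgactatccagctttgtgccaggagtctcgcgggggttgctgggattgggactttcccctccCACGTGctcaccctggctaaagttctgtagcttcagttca

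A p53 half-site was found at bases 65 to 74 of the Mdm2 window, bases 119 to 128 of the Ppm1d window and bases 176 to 185 of the Trp53 window, counted from the 5′ end. It was found in neither of the 2 windows of Mdm4 and not in that of Usp7. The Usp7 window, chr16:8738293-8738592 on the minus strand, lies inside the gene span given above, so the outermost start of that span was not searched. Of all 32851 mouse promoter windows of the same length, 8.36% held the half-site on either strand. The CACGTG E-box, in 7.15% of windows, was found in the Trp53 window, and the TGACGTCA CRE, in 1.79% of windows, in the Ppm1d window. The GGGCGG GC box, in 35.7% of windows, was found 8 times in the Usp7 window, 3 times in that of Ppm1d and 2 times in that of Mdm2. These motifs were chosen after the windows had been read, the matches are descriptions of the letters, and the known p53 response elements of Mdm2, in its first intron, were not covered by this window.

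The libraries held 26836946 to 27708782 estimated reads assigned to genes. The targeted helicase stood at 18.5% ± 4.25 of its EGFPKD mean in Ddx10KD, 30.8% ± 4.89 in Ddx24KD, 22.7% ± 0.818 in Ddx27KD and 28.0% ± 4.68 in Ddx54KD (SD, n = 3 each). All 8 embryonic stem cell markers examined were detected, with a summed level of 7632 to 8033 TPM (RSEM's level per transcript length) in knockdown libraries and 7833 to 7975 TPM in EGFPKD libraries. Within that sum Nanog was at 416 to 538 TPM in knockdown libraries against 586 to 592 TPM in EGFPKD libraries, and Sox2 at 543 to 643 TPM against 480 to 514 TPM. The summed level of 8 fibroblast markers, mostly Thy1, was 11.6 to 17.3 TPM in knockdown libraries against 18.1 to 26.1 TPM in EGFPKD libraries, while Postn was at 0 and Col3a1, Dcn and Lum were at 0.04 TPM or less in every library. The summed level of 5 trophoblast markers, mostly Tfap2c, was 87.4 to 142 TPM in knockdown libraries against 69.8 to 92.3 TPM in EGFPKD libraries, and that of 5 endoderm markers was 2.98 to 7.57 TPM against 2.35 to 3.72 TPM. The part of these markers in the results below was not tested. On the second principal component (9.11% of the variance) replicate 2 was the lowest library of every group, with scores of -9.16 in Ddx10KD, -19.7 in Ddx24KD, -10.4 in Ddx27KD, -17.0 in Ddx54KD and -9.20 in EGFPKD, against -0.37 or higher in the other 10 libraries.

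Mdm2 and Ppm1d rose in all 4 knockdowns, Mdm2 about 3-fold or more. In a fit by group alone, Mdm4 passed the threshold given below in 3 of them, and Trp53 and Usp7 in 1 each. With replicate number as a block, Mdm4 also passed it in Ddx10KD. So did Trp53 in Ddx24KD and Ddx27KD, and Usp7 in Ddx27KD. The block raised calls over all tested genes as well, to 6310 in Ddx10KD, 5907 in Ddx24KD, 6571 in Ddx27KD and 5570 in Ddx54KD. Without it they were 4438, 4026, 4788 and 3483 of 14335, in that order. A gene that missed the threshold was not thereby shown to be unchanged. Levels are given in TPM. Changes are log2 ratios of a knockdown to EGFPKD from edgeR's quasi-likelihood fit to the counts of all 15 libraries, with p-values adjusted by Benjamini-Hochberg over all 14335 genes and a gene called at an adjusted p under 0.05. In Ddx10KD 3 of the 5 genes were called (Trp53, Mdm2 and Ppm1d), where 31.0% of all tested genes were. In Ddx24KD 4 were called (Mdm2, Mdm4, Ppm1d and Usp7), where 28.1% of all genes were. In Ddx27KD 3 were called (Mdm2, Mdm4 and Ppm1d), where 33.4% of all genes were, and in Ddx54KD the same 3 were called, where 24.3% of all genes were. Each called gene was higher in the knockdown. All 4 comparisons share the EGFPKD libraries, so they are not independent. In these bulk samples, more cells with a transcript and more transcript per cell cannot be told apart.

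**Figure D1:**
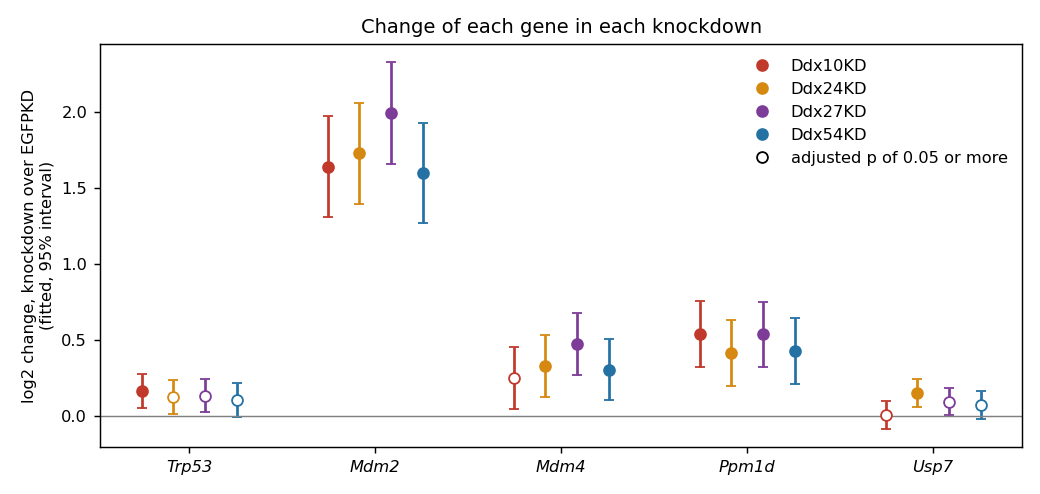
Fitted log2 change of each gene (vertical axis, knockdown over EGFPKD) by knockdown (colour), with 95% intervals from the edgeR fit to 15 libraries. Filled points have an adjusted p under 0.05. Mdm2 lies between 1.60 and 1.99, Ppm1d between 0.41 and 0.54, Mdm4 between 0.25 and 0.48, and Trp53 and Usp7 at 0.16 or lower.

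Trp53 encodes p53 itself and was the most abundant of the 5 transcripts in every library. It was at 954, 925 and 926 TPM in the Ddx10KD libraries, 925, 807 and 915 TPM in the Ddx24KD libraries, 942, 887 and 857 TPM in the Ddx27KD libraries, 905, 853 and 869.8 TPM in the Ddx54KD libraries, and 804, 772 and 828 TPM in the EGFPKD libraries. Ddx24KD replicate 2 lay within the EGFPKD range and the other 11 knockdown libraries lay above it. The log2 change was 0.16 ± 0.05 in Ddx10KD (SE, adjusted p = 0.0248), which was called, 0.12 in Ddx24KD (adjusted p = 0.0852), 0.13 in Ddx27KD (adjusted p = 0.0581) and 0.11 in Ddx54KD (adjusted p = 0.152). Averaged over the 4 knockdowns, Trp53 was higher than in EGFPKD by 0.13 ± 0.04 (adjusted p = 0.0185), a small difference. The call in Ddx10KD was lost without EGFPKD replicate 1 (adjusted p = 0.0790), EGFPKD replicate 2 (0.1004), Ddx10KD replicate 1 (0.0745) or Ddx10KD replicate 2 (0.0744). The call on the average was lost without EGFPKD replicate 1 (adjusted p = 0.0816) or EGFPKD replicate 2 (0.110). Without all replicate 2 libraries both calls were lost (adjusted p = 0.146 in Ddx10KD and 0.0828 on the average). Trp53 was called in Ddx24KD without Ddx24KD replicate 2 (adjusted p = 0.0220), and in Ddx27KD without Ddx27KD replicate 3 (0.0208) or Ddx24KD replicate 2 (0.0378). In a fit blocked by replicate number it was called in Ddx24KD (adjusted p = 0.0220) and Ddx27KD (0.0135) as well as in Ddx10KD (0.00353).

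**Figure D2:**
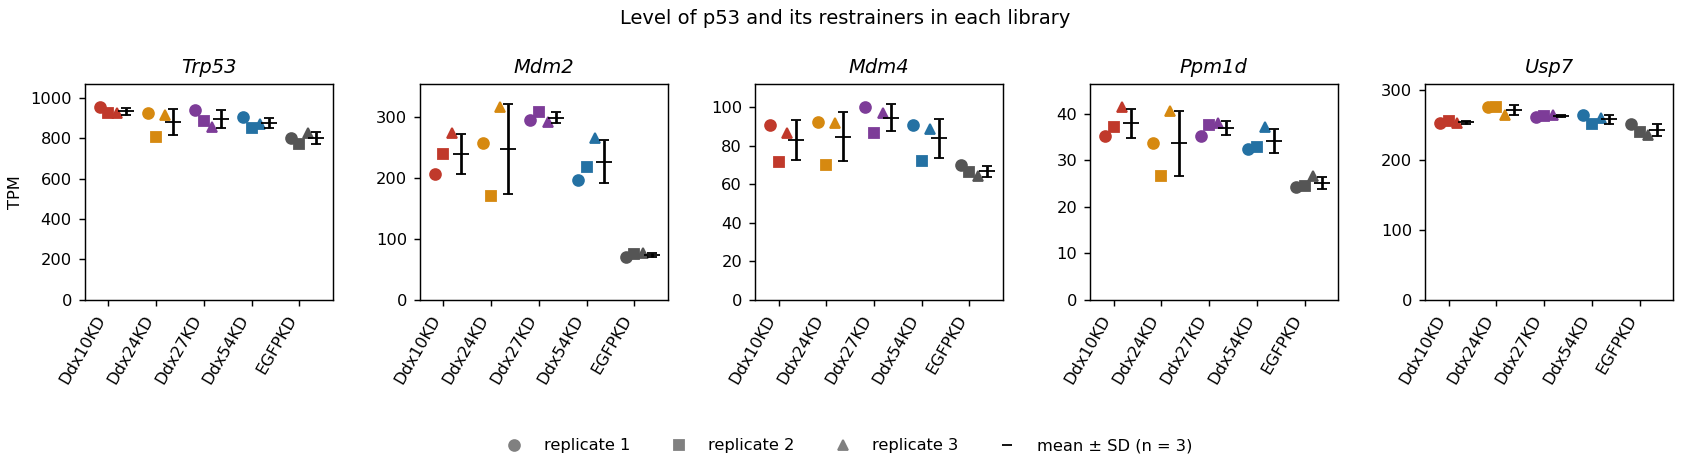
Level of each gene in TPM (vertical axes, each starting at 0) in every library, by group and replicate (symbol), with the mean ± SD of 3 replicates beside the points. The 12 knockdown libraries sit at 169.8 to 316 TPM for Mdm2, above the EGFPKD libraries at 69.8 to 76.5 TPM, and at 26.7 to 41.4 TPM for Ppm1d, above the EGFPKD libraries at 24.3 to 26.5 TPM.

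Mdm2, the ubiquitin ligase that degrades p53, had the largest change of the 5 genes in each knockdown. It was at 207, 239 and 273 TPM in the Ddx10KD libraries, 257, 169.8 and 316 TPM in the Ddx24KD libraries, 295, 309 and 292 TPM in the Ddx27KD libraries, 197, 217 and 266 TPM in the Ddx54KD libraries, and 69.8, 74.7 and 76.5 TPM in the EGFPKD libraries. No knockdown library overlapped the EGFPKD libraries, and the lowest of the 12 was Ddx24KD replicate 2. The group means were 239.6 ± 32.9 TPM in Ddx10KD, 247 ± 73.4 TPM in Ddx24KD, 298 ± 9.07 TPM in Ddx27KD, 227 ± 35.4 TPM in Ddx54KD and 73.7 ± 3.47 TPM in EGFPKD (SD, n = 3 each). The log2 change was 1.64 ± 0.16 in Ddx10KD (SE, adjusted p = 1.89e-06), 1.73 ± 0.16 in Ddx24KD (1.32e-06), 1.99 ± 0.16 in Ddx27KD (1.81e-07) and 1.60 ± 0.16 in Ddx54KD (3.75e-06), or 3.11-, 3.31-, 3.97- and 3.02-fold in that order of groups. Over the 4 knockdowns together it was 1.74 ± 0.14 (adjusted p = 1.08e-07). By the size of its change Mdm2 stood among the top 1.86% of tested genes in Ddx10KD, 1.42% in Ddx24KD, 1.33% in Ddx27KD and 1.58% in Ddx54KD. Its call in each of the 4 comparisons and on their average was kept under all alternative settings and without any 1 library, with log2 changes between 1.49 and 2.02. Without Ddx24KD replicate 2 the Ddx24KD change was 1.92.

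Mdm4, the relative of Mdm2 that binds p53 and works with Mdm2 as a ligase, was higher by a smaller amount. It was at 90.6, 71.3 and 86.9 TPM in the Ddx10KD libraries, 92.5, 70.0 and 91.9 TPM in the Ddx24KD libraries, 100.1, 86.7 and 97.0 TPM in the Ddx27KD libraries, 90.8, 72.3 and 88.7 TPM in the Ddx54KD libraries, and 70.0, 66.2 and 64.3 TPM in the EGFPKD libraries. Replicate 2 was the lowest library of each knockdown, and Ddx24KD replicate 2 equalled the highest EGFPKD library. The group means were 83.0 ± 10.2 TPM in Ddx10KD, 84.8 ± 12.8 TPM in Ddx24KD, 94.6 ± 6.99 TPM in Ddx27KD, 83.9 ± 10.1 TPM in Ddx54KD and 66.8 ± 2.91 TPM in EGFPKD (SD, n = 3 each). Mdm4 rose by 0.33 ± 0.10 on the log2 scale in Ddx24KD (SE, adjusted p = 0.0176), 0.48 ± 0.10 in Ddx27KD (0.00123) and 0.31 ± 0.10 in Ddx54KD (0.0289). In Ddx10KD the value was 0.25 ± 0.10 (adjusted p = 0.0575), which missed the threshold, and on the average of the 4 knockdowns it was 0.34 ± 0.08 (0.00241). In a fit blocked by replicate number Mdm4 was called in Ddx10KD as well (adjusted p = 0.00104). It was also called there without Ddx10KD replicate 2 (adjusted p = 0.0234), without Ddx24KD replicate 2 (0.0230) and without all replicate 2 libraries (0.00312).

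Without the block, the Mdm4 calls in Ddx24KD and Ddx54KD were lost when single libraries were left out. The call in Ddx24KD was lost without EGFPKD replicate 3 (adjusted p = 0.0674), Ddx24KD replicate 1 (0.0871) or Ddx24KD replicate 3 (0.0793). The call in Ddx54KD was lost without EGFPKD replicate 1 (adjusted p = 0.0542), EGFPKD replicate 2 (0.0705), EGFPKD replicate 3 (0.0978), Ddx54KD replicate 1 (0.102) or Ddx54KD replicate 3 (0.0947). The calls in Ddx27KD and on the average of the 4 knockdowns were kept without any 1 library. Mdm4 was higher than in the same-numbered EGFPKD library in 3 of 3 libraries of each knockdown, and with the block its adjusted p was 9.75e-05 in Ddx24KD and 2.15e-04 in Ddx54KD.

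Ppm1d (Wip1), a phosphatase that removes activating phosphates from p53 and from the kinases that signal to it, was the least abundant of the 5 and rose in all 4 knockdowns. It was at 35.2, 37.1 and 41.4 TPM in the Ddx10KD libraries, 33.6, 26.7 and 40.6 TPM in the Ddx24KD libraries, 35.2, 37.6 and 37.9 TPM in the Ddx27KD libraries, 32.3, 32.9 and 37.1 TPM in the Ddx54KD libraries, and 24.3, 24.4 and 26.5 TPM in the EGFPKD libraries. Every knockdown library lay above the EGFPKD libraries, Ddx24KD replicate 2 only just. The log2 change was 0.54 ± 0.10 in Ddx10KD (SE, adjusted p = 8.67e-04), 0.41 ± 0.10 in Ddx24KD (0.00700), 0.54 ± 0.10 in Ddx27KD (8.02e-04) and 0.42 ± 0.10 in Ddx54KD (0.00667), and 0.48 ± 0.08 on their average (2.86e-04), a 1.39-fold difference. These 5 calls were kept under all alternative settings and without any 1 library, with log2 changes between 0.26 and 0.59 and adjusted p-values up to 0.0438.

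Usp7 (HAUSP), a deubiquitinase that removes ubiquitin from Mdm2, Mdm4 and p53 and so can act in either direction, had the smallest change of the 5 genes in Ddx10KD, Ddx27KD and Ddx54KD. It was at 253, 256 and 252 TPM in the Ddx10KD libraries, 275, 275 and 264 TPM in the Ddx24KD libraries, 262, 263 and 265 TPM in the Ddx27KD libraries, 264, 251 and 259.7 TPM in the Ddx54KD libraries, and 252, 239 and 236 TPM in the EGFPKD libraries. In TPM the Ddx24KD and Ddx27KD libraries lay above those of EGFPKD. The Ddx10KD and Ddx54KD libraries reached down to about the level of EGFPKD replicate 1, the highest of them. In counts scaled for library size (CPM), the scale of the fitted changes, Ddx10KD lay at 642 to 686, overlapping EGFPKD at 636 to 675. Ddx54KD lay at 677 to 703 CPM, above EGFPKD. Usp7 rose by 0.15 ± 0.04 on the log2 scale in Ddx24KD (SE, adjusted p = 0.0150), 1.11-fold. The log2 change was 0.01 in Ddx10KD (adjusted p = 0.902), 0.09 in Ddx27KD (0.104), 0.07 in Ddx54KD (0.252) and 0.08 ± 0.03 on the average of the 4 (0.0705). The Ddx24KD call was lost without EGFPKD replicate 3 (adjusted p = 0.0723) or Ddx24KD replicate 2 (0.0518), without all replicate 2 libraries (0.0936), and in a fit to the 2 groups alone (0.0537). In a fit blocked by replicate number Usp7 was called in Ddx27KD too (adjusted p = 0.0161) and on the average of the 4 knockdowns (0.00905). The average was also called without Ddx24KD replicate 3 (adjusted p = 0.0494).

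Because TPM is scaled by transcript length, the levels of the 5 transcripts can be set in order. In EGFPKD libraries the order was Trp53, Usp7, then Mdm2 and Mdm4, whose ranges overlapped, and last Ppm1d. The knockdowns moved Mdm2 away from Mdm4 and up to the level of Usp7. The Mdm2 to Mdm4 ratio was 2.17 to 3.56 in the 12 knockdown libraries, against 0.998 to 1.19 in the 3 EGFPKD libraries, a 2.62-fold difference (exact permutation test over the 15 libraries, two-sided, p = 0.00220, adjusted over the 5 ratios 0.00366). The Mdm2 to Usp7 ratio exceeded 1 in 6 of the 12 knockdown libraries, all 3 of Ddx27KD and replicate 3 of each other knockdown, and was 0.277 to 0.324 in EGFPKD libraries. Mdm2 made up 38.9% ± 3.27 of the summed TPM of the 4 genes other than Trp53 in Ddx10KD, 38.2% ± 6.53 in Ddx24KD, 43.0% ± 1.14 in Ddx27KD and 37.5% ± 3.57 in Ddx54KD, against 18.1% ± 1.14 in EGFPKD (SD, n = 3 each).

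Relative to Trp53 transcript, the restrainers moved unequally. The Mdm2 to Trp53 ratio was 0.211 to 0.348 in knockdown libraries, with a median of 0.286, against 0.0869 to 0.0967 in EGFPKD libraries, a 3.02-fold difference (exact permutation p = 0.00220, adjusted 0.00366). The Ppm1d to Trp53 ratio was 0.0330 to 0.0447 in knockdown libraries against 0.0302 to 0.0320 in EGFPKD libraries, a 1.27-fold difference (exact permutation p = 0.00220, adjusted 0.00366). These p-values are the smallest the design allows. The Mdm4 to Trp53 ratio, 0.0771 to 0.113 against 0.0776 to 0.0871, overlapped between knockdown and EGFPKD libraries (exact permutation p = 0.0571, adjusted 0.0714). It passed the threshold without Ddx10KD replicate 2 (adjusted p = 0.0172, exact permutation) or Ddx54KD replicate 2 (0.0446). The Usp7 to Trp53 ratio, 0.265 to 0.341 against 0.285 to 0.314, overlapped as well (exact permutation p = 0.382).

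**Figure D3:**
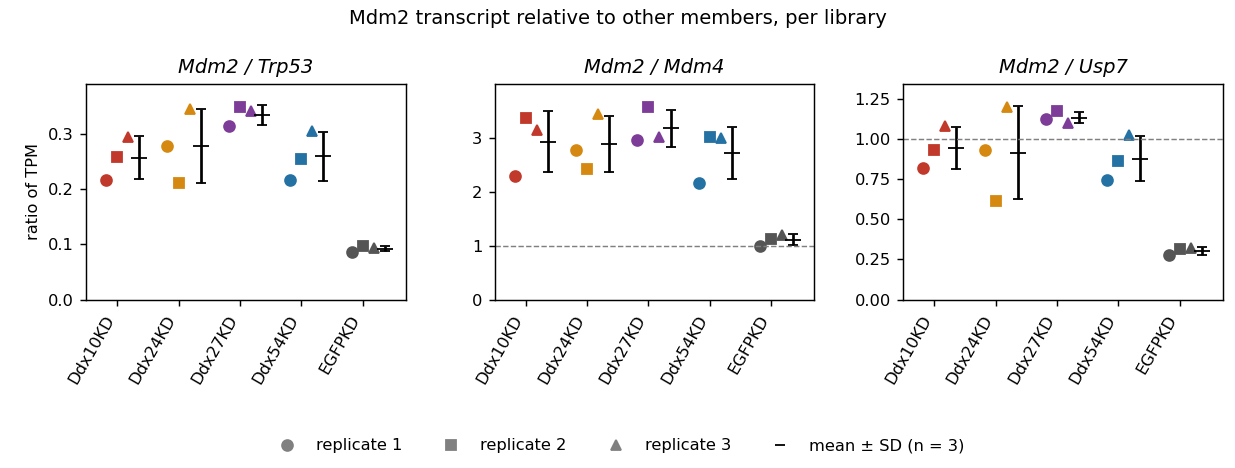
Ratio of Mdm2 to Trp53, Mdm4 and Usp7 in TPM (vertical axes, each starting at 0; the dashed line marks a ratio of 1) per library, with the mean ± SD of 3 replicates. The 12 knockdown libraries lie at 2.17 to 3.56 for Mdm2 over Mdm4, above the EGFPKD libraries at 0.998 to 1.19, and only replicate 3 libraries and all Ddx27KD libraries pass 1 for Mdm2 over Usp7.

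Between knockdowns, no difference in the 5 genes passed the threshold. In the 6 pairwise comparisons none of the 5 genes was called by edgeR, DESeq2 or limma-voom, where 0.412% of all tested genes were called in Ddx10KD against Ddx24KD, 0.223% in Ddx10KD against Ddx27KD, 1.43% in Ddx10KD against Ddx54KD, 0.0209% in Ddx24KD against Ddx27KD, 0.0558% in Ddx24KD against Ddx54KD and 0.0140% in Ddx27KD against Ddx54KD. Of the 30 values, 4 had an unadjusted edgeR p under 0.05. Mdm2 was higher in Ddx27KD than in Ddx54KD by 0.39 on the log2 scale (95% interval 0.08 to 0.71, adjusted p = 0.531), and the libraries of these groups did not overlap. Mdm2 was lower in Ddx10KD than in Ddx27KD, with a log2 difference of -0.35 (95% interval -0.67 to -0.03, adjusted p = 0.386). Usp7 was lower in Ddx10KD than in Ddx24KD, with a difference of -0.14 (95% interval -0.23 to -0.05, adjusted p = 0.194), and in the blocked fit that difference was called (adjusted p = 0.0113). Mdm4 was lower in Ddx10KD than in Ddx27KD, with a difference of -0.22 (95% interval -0.43 to -0.02, adjusted p = 0.384). With the block it was called (-0.23, adjusted p = 0.0187). The blocked fit called 776 of all tested genes in Ddx10KD against Ddx24KD and 766 in Ddx10KD against Ddx27KD. Without the block these counts were 59 and 32. A test of any difference among the 5 groups called Mdm2 (adjusted p = 2.73e-06), Mdm4 (0.0145) and Ppm1d (0.00422), 3 of the 5 genes, where 29.0% of all genes were called. Trp53 (adjusted p = 0.139) and Usp7 (0.0517) were called in it with the block (0.0250 and 0.00190), where 7098 genes were. The Mdm4 call was lost without EGFPKD replicate 2 (adjusted p = 0.0564) or EGFPKD replicate 3 (0.0731), and Usp7 was called without Ddx10KD replicate 2 (0.0429) or Ddx24KD replicate 3 (0.0352).

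Within groups, Mdm2 and Ppm1d varied together from library to library. After each library's log2 level was set against its group mean, their Pearson correlation over 15 libraries was 0.958 (Spearman 0.904), and 0.884 without Ddx24KD replicates 2 and 3, the 2 libraries farthest from their group mean in Mdm2. The library highest in Mdm2 was also highest in Ppm1d in 5 of 5 groups. Mdm4 did not share this order: its correlation with Mdm2 was 0.3201 and turned to -0.299 without those 2 libraries. The Trp53 correlation with Mdm2, 0.283, likewise turned to -0.252. Usp7 ran the other way, at -0.655, and at -0.349 without the 2 libraries. By the same measure Trp53inp1 was at 0.965 with Mdm2 and Prkar1a at 0.968 with Ppm1d. The closeness of Mdm2 and Ppm1d is therefore not particular to that pair. These values describe libraries that share groups and replicate numbers, and they carry no test.

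**Figure D4:**
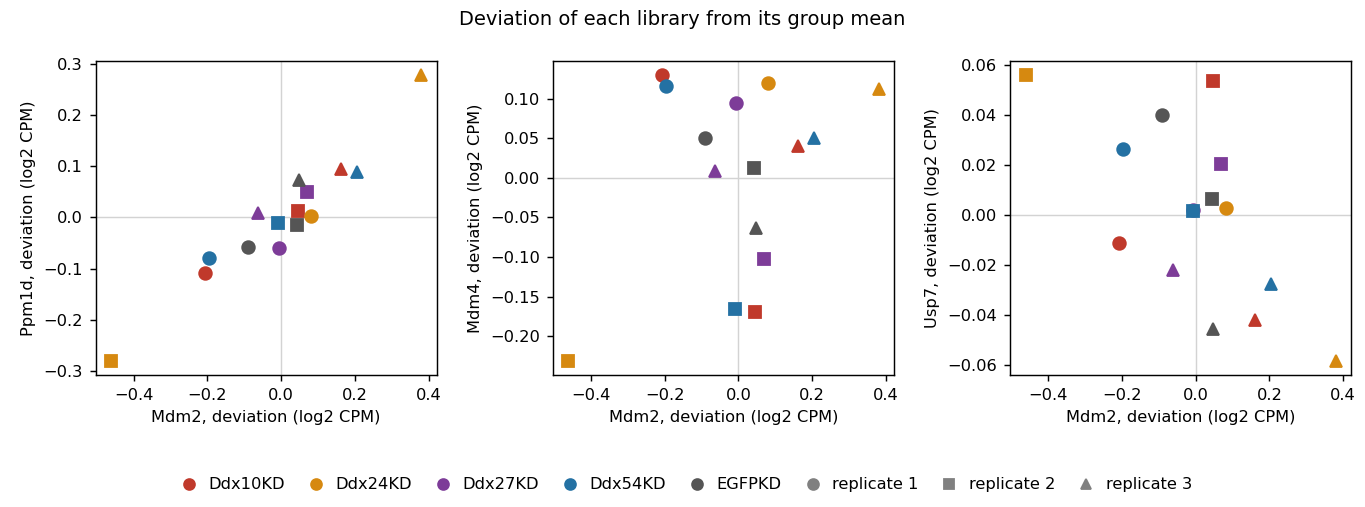
Deviation of each library from its group mean for Mdm2 (horizontal axes) against Ppm1d, Mdm4 and Usp7 (vertical axes), in log2 CPM, by group (colour) and replicate (symbol). Points fall along a rising line for Ppm1d (r = 0.958), and Ddx24KD replicates 2 and 3 mark the ends of the Mdm2 range.

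The remaining helicase transcript ran opposite to Mdm2 in 3 of the 4 knockdowns. In Ddx10KD the targeted Ddx10 stood at 22.9%, 18.3% and 14.4% of its EGFPKD mean in replicates 1 to 3, beside 301, 359 and 389 Mdm2 CPM (counts scaled for library size, not length). In Ddx24KD the Ddx24 remaining was 32.7%, 34.3% and 25.2%, beside 382, 262 and 470.1 Mdm2 CPM. In Ddx54KD the Ddx54 remaining was 31.6%, 29.6% and 22.7%, beside 294, 335 and 389 Mdm2 CPM. In each of these groups the library with the least target left had the most Mdm2 and the one with the most target left had the least. This order was not particular to Mdm2: the median log2 difference of the 34 other p53 targets listed below from their EGFPKD means followed it. In replicates 1 to 3 it was 0.94, 0.97 and 1.18 in Ddx10KD and 1.05, 0.72 and 1.20 in Ddx24KD. In Ddx54KD it was 0.83, 0.87 and 1.01. The library with the least target left was replicate 3 in every knockdown, Ddx27KD included. Same-numbered libraries deviated together across groups, so this order cannot be told apart from replicate number, and the 3 groups are not independent. In Ddx27KD the Ddx27 remaining, 23.3%, 23.0% and 21.8%, hardly varied and Mdm2, at 444, 468 and 427 CPM, did not follow it. With 3 libraries a group, no test of this order was made.

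The abundance-weighted transcript length that RSEM reports shifted slightly in the 3 genes with several transcripts. On average it differed between knockdown and EGFPKD libraries by -2.34 bases for Trp53 (mean 1786 against 1788 bases, exact permutation p = 0.00440), by -6.67 bases for Mdm2 (mean 3077 against 3083 bases, exact permutation p = 0.00659) and by -10.4 bases for Mdm4 (mean 7199.6 against 7210.02 bases, exact permutation p = 0.00440). Adjusted over all 3900 genes with several transcripts these were 0.165, 0.188 and 0.165, and none of the 3900 genes passed. An unadjusted exact p under 0.05 was reached by 10.9% of those genes. The shifts were -0.131%, -0.216% and -0.144% of the length, beside a median absolute shift of 0.119% over those genes. A relative shift at least as large was found in 48.4%, 38.8% and 46.8% of those genes, in the same order.

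The authors' deposited tables of each knockdown against EGFPKD, made with EBSeq, give a posterior probability of differential expression for each gene. For Mdm2 the authors' deposited table gave posterior fold changes of 3.10 in Ddx10KD, 3.29 in Ddx24KD, 3.96 in Ddx27KD and 3.01 in Ddx54KD. Each had a probability above 0.95. For Ppm1d that probability was passed in 3 of the 4 authors' deposited tables, and was 0.383 in Ddx24KD. In the authors' deposited tables Mdm4 passed 0.95 in Ddx27KD and was at 0.274, 0.370 and 0.748 in Ddx10KD, Ddx24KD and Ddx54KD. Trp53 passed it in Ddx10KD, and Usp7 in none of the authors' deposited tables, with 0.949 in Ddx27KD. The share of listed genes at 0.95 or more in the authors' deposited tables was 17.1%, 12.4%, 18.3% and 13.1% for Ddx10KD, Ddx24KD, Ddx27KD and Ddx54KD. The raw fold changes of the authors' deposited Ddx24KD table were farther from the ratios of group means computed here than those of the other 3 tables. The median distance on the log2 scale was 0.0412, against 0.00385 to 0.00681.

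Genes around p53 were set beside the 5 genes in lists chosen with earlier results of these data known, on the contrast of the average of the 4 knockdowns with EGFPKD, where 4 of the 5 genes and 38.7% of all genes were called, 19.6% as higher, and the median change over all genes was 0.00. Among 34 other p53 targets, 28 rose and 1 fell, with a median log2 change of 1.08. Ptprv, a p53-induced phosphatase gene, rose by 2.81 ± 0.18 (SE, adjusted p = 1.76e-08), to 38.6 CPM in Ddx10KD, 42.9 in Ddx24KD, 51.0 in Ddx27KD and 40.7 in Ddx54KD, against 6.13 in EGFPKD. Plk2, a kinase gene of the cell cycle, rose by 2.60 ± 0.14, Phlda3, whose product restrains Akt, by 1.71 ± 0.10 and Pmaip1 (Noxa), a promoter of apoptosis, by 1.55 ± 0.09. The counts of higher targets were 29 in Ddx10KD, 27 in Ddx24KD, 28 in Ddx27KD and 28 in Ddx54KD, and 26 to 30 under every alternative setting. In the same order of groups, 31.0%, 28.1%, 33.4% and 24.3% of all tested genes were called in either direction.

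Of 28 genes of other p53 restrainers, 14 rose, 4 fell and 10 were not called, with a median of 0.11. The ubiquitin ligase gene Ube4b rose by 0.37 ± 0.03 (SE, adjusted p = 4.86e-07), the p53 inhibitor gene Ppp1r13l (iASPP) by 0.72 ± 0.07 and the Polycomb gene Bmi1 by 1.03 ± 0.14, whereas Trim28, a co-repressor that works with Mdm2, fell by 0.34 on the log2 scale. Of 29 genes of p53 activators, 9 rose and 5 fell, with a median of 0.06. Among them Pml rose by 0.39 ± 0.04 and Ppp1r13b, a p53 cofactor gene, by 0.47 ± 0.07, while the kinase genes Chek1 and Mapk14 fell by 0.23 and 0.25 on the log2 scale.

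Of 26 genes of ribosomal and nucleolar proteins that bind Mdm2 or control those that do, the transcripts of 6 rose, 3 fell and 17 were not called, with a median of 0.06. By knockdown, 1 rose and 3 fell in Ddx10KD, 7 rose and 2 fell in Ddx24KD, 7 rose and 3 fell in Ddx27KD, and 5 rose and 3 fell in Ddx54KD. Of all tested genes 31.0%, 28.1%, 33.4% and 24.3% were called in the same order of groups, so these counts do not set the list apart. Rps27l, itself a p53 target in human cells, rose by 0.44 ± 0.05 (SE, adjusted p = 2.67e-06). Gltscr2 (Nop53), which encodes a nucleolar protein, rose by 0.17 ± 0.04 on the average and was called in Ddx24KD, Ddx27KD and Ddx54KD, with a value of -0.04 in Ddx10KD (adjusted p = 0.587). Heatr3, which helps load Rpl5 for assembly, fell by 0.37 and the assembly factor gene Pak1ip1 by 0.19 on the log2 scale. Of the p53 paralogues, Trp73 rose by 2.50 ± 0.21 (adjusted p = 2.88e-07), to 9.77 ± 2.43 TPM in Ddx10KD, 11.3 ± 3.81 in Ddx24KD, 14.6 ± 0.0819 in Ddx27KD and 9.05 ± 1.94 in Ddx54KD, against 1.91 ± 0.383 TPM in EGFPKD (SD, n = 3 each). Trp63, at 0.15 TPM or less in every library, did not pass the filter.

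**Figure D5:**
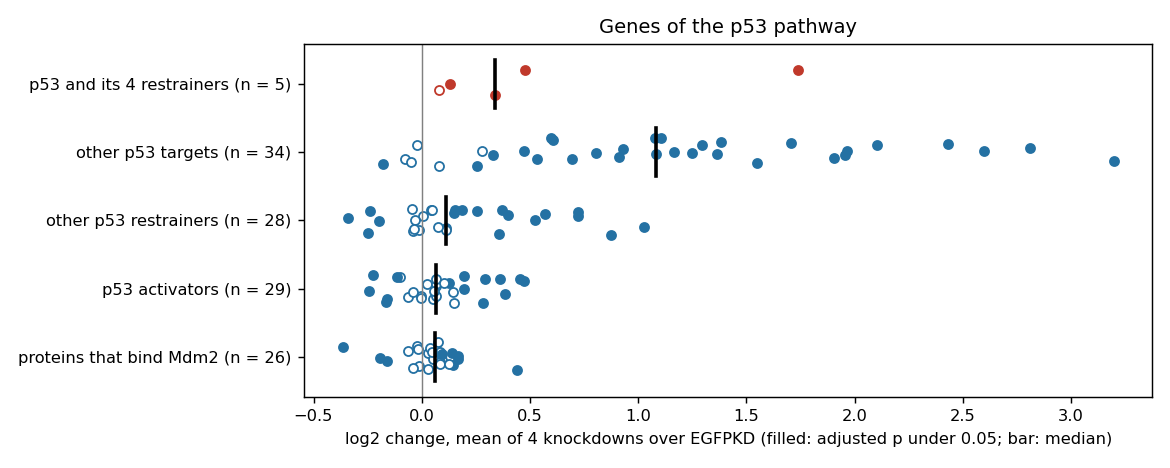
Log2 change of each gene (horizontal axis, average of the 4 knockdowns over EGFPKD) by list, with filled points at an adjusted p under 0.05 and a bar at each list's median. The median is 1.08 for the 34 other p53 targets and 0.11 or lower for the genes of other restrainers, of activators, and of proteins that bind Mdm2 or control those that do.

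The genes most like each of the 5 across the 15 libraries were found by Pearson correlation of log2 CPM over all 5 groups, which includes the difference between knockdowns and EGFPKD. For Mdm2 they were Tef, Zfp365, Apaf1, Slc4a11 and Trp53inp1, all at 0.995, and at 0.952 to 0.980 over the 12 knockdown libraries. Apaf1 and Trp53inp1 are among the listed p53 targets. For Ppm1d they were Nsf, Prkar1a, Mcm3ap, Kif1c and Slc39a14 (0.973 to 0.976), for Mdm4 Srrm2, Zbp1, Csnk1g1, Zfhx3 and Pisd-ps1 (0.927 to 0.938), for Trp53 Zscan25, Fitm2, Ubash3b, Zscan10 and Cars2 (0.885 to 0.898), and for Usp7 Tpt1, Supt16, Fxr1, Tpx2 and Msantd3 (0.902 to 0.929). None of these neighbours was shared between 2 of the 5 genes.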

How the data were processed

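Poly(A) RNA of 15 libraries was sequenced, 3 biological replicates in each of 5 groups. Per the file headers, the authors deposited for each library RSEM gene values in estimated counts (expected reads per gene, not scaled for depth), TPM, FPKM and transcript lengths. The submitters' processing notes name RSEM and mm10, and the aligner, annotation release and versions were not given in the sources used here. The authors also deposited an EBSeq table per knockdown. Per the file headers it holds posterior probabilities, used here as scores, and posterior and raw fold changes of knockdown to control.

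Expected counts were rounded and fitted in 1 model with edgeR 4.0.16 (limma 3.58.1, R 4.3.3): filterByExpr, TMM factors, quasi-likelihood test, group as the only term, Benjamini-Hochberg over 14335 genes. These genes held 99.97% of the counts. SE and 95% intervals come from that fit, and CPM uses TMM-scaled totals with a prior count of 2 on the log scale. Alternatives were DESeq2 1.42.0, limma-voom, other factors and filters, a stricter threshold, the groups compared alone, a replicate block and each library left out. Ratios of TPM and RSEM lengths were tested by exact two-sided permutation of 3 EGFPKD among 15 libraries (smallest p 0.0022). The p-values given are from this free permutation, which does not keep libraries within their replicate number. The length p-values were to be adjusted over the 5 genes and were instead adjusted over all genes with several transcripts.

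Same-numbered libraries deviated together in all 30 pairs (correlation 0.106 to 0.335), and 15 of 15 libraries were closest to their own number, so the numbers were taken to pair the libraries. The 5 genes and all lists were chosen with earlier results of these data known. Named from each list were up to 4 called genes with the smallest p on the average of the 4 knockdowns, and for each of the 5 genes the 5 most correlated genes. Replicates of each group differed by more than counting noise, and none was counted as a copy. The fit and the permutation test were tested on simulated data. In simulated Ddx10KD against EGFPKD, with most genes left unchanged, the fit called 0% of 50 genes changed 1.1-fold. It called 70% of 50 genes at 1.3-fold, and 100% at 2-fold and at 3-fold. The simulation left most genes unchanged, whereas 31.0% of tested genes were called in the data for this comparison, so these shares do not carry over. The data called Trp53 at 1.12-fold in Ddx10KD and Usp7 at 1.11-fold in Ddx24KD. A missing call for Trp53 or Usp7 still does not show that the gene was unchanged.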

Additional observations from a re-analysis of the deposited data

How the results depend on the processing

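Of 1490 values recomputed for the 5 genes under alternative settings, 1433 kept their side of the threshold, 28 lost the call and 29 gained it. In 0 of them did a called value reverse its direction. Values called in neither setting were counted as kept whatever their sign, and some changed sign, such as Usp7 in Ddx10KD (0.01, down to -0.02). Every alternative named with the methods was run. Leaving out all replicate 2 libraries was added after seeing the data. With the replicate number as a block, which pairs the libraries, 5 of the 5 genes were called in Ddx27KD, where 6571 of 14335 genes were. In the test of any difference 5 were called too, where 7098 genes were. Without the block 3 were called in each. In Ddx10KD against Ddx24KD and in Ddx10KD against Ddx27KD, 1 of the 5 genes was called with the block and 0 without it. Of all tested genes, the block called 776 and 766 there. No other count of called genes moved by over 1.5 times with the block, and it changed no call beyond those given with the genes. In Ddx27KD 5 of the 5 genes were called with a filter of 10 CPM, where 3555 of 9032 genes were. In Ddx24KD 2 genes were called at an adjusted p under 0.01, and 2 to 4 with 1 library left out. The log2 difference of the Mdm4 to Trp53 ratio ranged from 0.15 to 0.24 with 1 library left out. Over all genes, calls in Ddx54KD were 3483, against 5570 with the block, 1860 at an adjusted p under 0.01, 2232 without Ddx54KD replicate 3 and 2161 without replicate 2, and the test of any difference called 4151, against 7098, 2336 and 2329 with the block, at 0.01 and without replicate 2. Calls at 0.01 were 2673 in Ddx10KD, 2310 in Ddx24KD and 3039 in Ddx27KD, against 4438, 4026 and 4788. Of 992 counts over the other lists, 895 stayed within 1.5 times. Of the 5 genes Ppm1d was the least covered, with 939 or more estimated reads in each library, and each group had 3 replicates at 1 time, 48 h. The cause of the changes was not tested.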
